A study of Mus musculus with 16 samples.

Results

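The trophectoderm genes examined here are Cdx2, Eomes, Tfap2c, Gata3, Elf5, Hand1, Esx1, Dlx3, Krt8 and Krt18, and the data are the OCT4 peaks that lie near them in mouse embryonic stem (ES) cells. A peak counted for a gene if its midpoint lay inside the gene body or within 50 kb of any annotated transcription start site (TSS) of that gene. This rule gave 19 peaks out of 26704 in the list. They were divided over 9 of the 10 genes, and 1 peak was counted for both Krt8 and Krt18, whose windows overlap.

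ChIP-seq, which sequences the DNA fragments pulled down with an antibody, was performed for OCT4, for the chromatin remodeler subunit BRG1 and for the acetylated histone H3K27ac, in 16 libraries that form 8 groups of 2. The peaks come from the line 2TS22C, in which a Tet-Off promoter drives the only source of SOX2. OCT4 was precipitated from 2TS22C cells with 26 h of doxycycline at 1 ug/ml (SOX2 OFF, 2 libraries) and from untreated cells at 26 h (SOX2 ON, 2 libraries), all in medium with serum, LIF and a pair of kinase inhibitors. Only 1 merged list of OCT4 peaks was analysed here, with a chromosome, a start and an end for each peak. It has no read count, height or library name, so depth is unknown, a value per library cannot be given, and SOX2 OFF could not be compared with SOX2 ON. A peak in the list was called in at least 1 peak set that entered the merge, and a missing peak cannot be told apart from one under the calling threshold. The 2TS22C line is a single engineered line, and the peak list holds no expression with which to check the cells against marker genes. OFF names the treatment, and SOX2 protein is long-lived. By immunofluorescence the authors still found residual SOX2 in 2TS22C cells after 26 h of doxycycline, so its loss at this time was incomplete.

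The trophectoderm is the outer epithelium of the blastocyst that implants and gives rise to the placenta. Its genes are kept low in the inner cell mass and in ES cells, and OCT4 is known to hold down Cdx2 there, so that ES cells losing OCT4 turn toward trophoblast. On DNA, OCT4 recognises an octamer, SOX2 recognises a short core, and the pair can bind side by side on a composite OCT4::SOX2 motif.

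Most trophectoderm genes had an OCT4 peak in their surroundings, but none had one at its own promoter. At least 1 peak was found for 9 of 10 genes, where 73.0% of 21938 protein-coding genes had one under the same rule. The median was 1.5 peaks per gene, with a range of 0 to 5, and the median over protein-coding genes was 2. No gene of the 10 had a peak midpoint within 1 kb of any of its own TSSs, where 16.5% of protein-coding genes did. Within 10 kb of a TSS, 3 of 10 had a peak (Cdx2, Tfap2c and Krt8), where 38.5% of protein-coding genes did. The number of genes is small, and each of these shares is a description of 10 genes chosen for their role. No interval or test was computed for them, so they do not show that the 10 genes differ from protein-coding genes.

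The windows of the 10 genes together covered 983 kb and held 1.93 peaks per 100 kb, and the genome as a whole held 0.980. The genome value also covers sequence outside gene windows, so it is not a like-for-like reference. Taken gene by gene, the median was 1.5 peaks per 100 kb over the 10 genes and 1.00 over protein-coding genes. No interval or test was computed for these densities. The peaks were unevenly spread among the genes. Tfap2c had 5 and Cdx2 had 4, and no other gene had more than 3. Together they held 9 of the 19 peaks, and 7 of these were nearer to Cdx2 or Tfap2c than to any other protein-coding TSS.

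**Figure D1:**
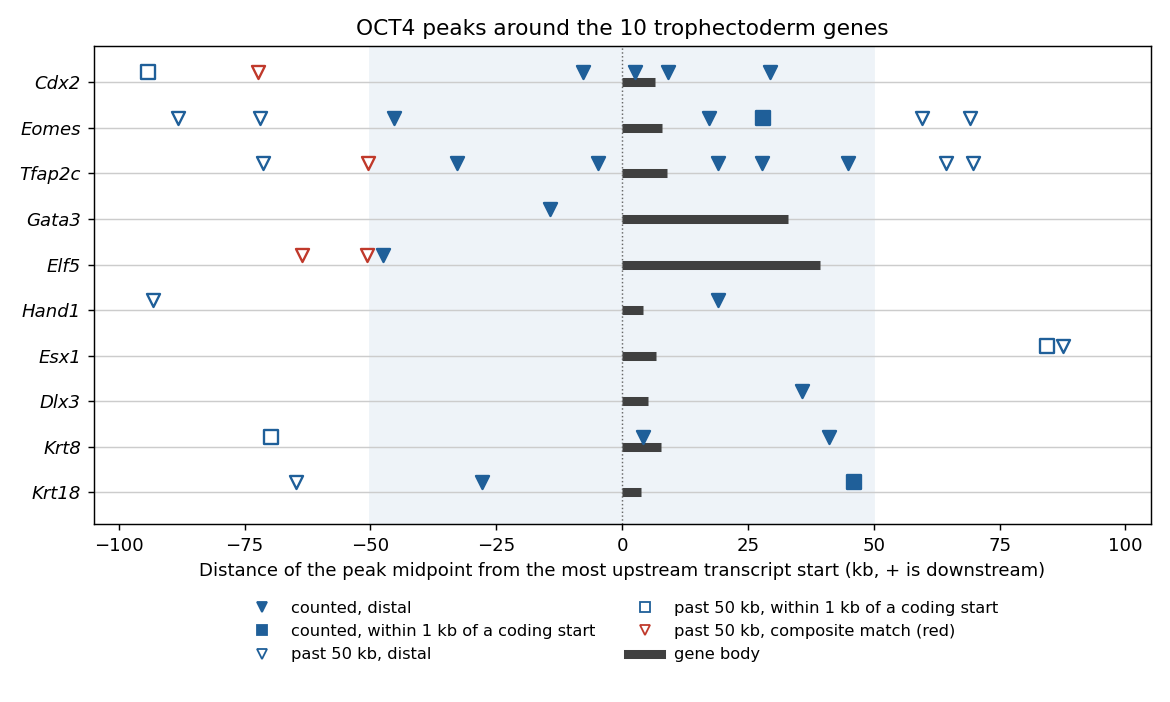
Each row is a trophectoderm gene with its body as a dark bar, and the horizontal axis is the distance in kb of each OCT4 peak midpoint from the gene's most upstream TSS, out to 100 kb on each side, with positive values downstream. Filled symbols are the peaks counted here and open symbols are peaks past 50 kb (for Krt8 and Krt18 these are peaks already counted for the neighbouring keratin gene). Squares lie within 1 kb of a protein-coding TSS and red marks a composite OCT4::SOX2 match. Cdx2, Eomes and Tfap2c have the most peaks drawn, though those downstream of Eomes are nearer to the TSS of Golga4. Esx1 has none in the shaded window, and all 4 red symbols are open.

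Cdx2 encodes the homeobox factor that specifies the trophectoderm, and it lies on the minus strand of chromosome 5 with its TSS at 147307270 (GRCm38, the build named mm10, used for all positions). It had 4 peaks, which is more than for 81.8% of protein-coding genes. The widest of all 19 peaks, 1019 bp, lay in an intron of Cdx2 at chr5:147304173-147305191, with its midpoint 2.59 kb downstream of the TSS. Of all peaks in the list, 99.2% were narrower. This peak had 57.3% G+C, 57 CpG dinucleotides and an observed to expected CpG ratio of 0.682, against medians of 46.4% and 0.206 over all peaks. It was not promoter-proximal, meaning within 1 kb of a protein-coding TSS. The stretch below is shown because it holds the only SOX core of this peak and its closest approach to the composite motif. It is chr5:147304940-147305097 on the minus strand, with the composite window (4 mismatches) and the SOX core in capitals.

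Cdx2 intron: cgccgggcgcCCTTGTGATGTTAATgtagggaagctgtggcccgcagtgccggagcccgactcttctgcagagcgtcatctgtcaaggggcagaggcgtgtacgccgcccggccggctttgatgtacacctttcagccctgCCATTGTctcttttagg

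The other Cdx2 peaks lay on both sides of the gene. A peak of 246 bp sat 7.70 kb upstream of the Cdx2 TSS, at chr5:147314843-147315088, slightly nearer to the TSS of Urad (7.47 kb). It held 2 SOX cores and 1 TEAD core. TEAD4 is the factor that, with its co-activator YAP1, turns on Cdx2 in the outer cells of the embryo. The whole peak is shown on the plus strand because these matches lie within 80 bases of its midpoint, with the SOX cores and the TEAD core in capitals.

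Cdx2 upstream: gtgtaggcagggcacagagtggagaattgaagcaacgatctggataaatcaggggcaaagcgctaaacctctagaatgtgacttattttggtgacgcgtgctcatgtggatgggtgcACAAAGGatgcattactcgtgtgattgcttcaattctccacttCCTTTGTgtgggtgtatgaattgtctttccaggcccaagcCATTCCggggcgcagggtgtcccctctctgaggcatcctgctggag

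One SOX core lay 3 bases from the midpoint and the other 40 bases away. Downstream of Cdx2, a peak of 279 bp was found 9.06 kb from the TSS (chr5:147298069-147298347), without a match to any motif searched. A peak of 553 bp lay 29.5 kb from the Cdx2 TSS (chr5:147277503-147278055), nearer to Pdx1, whose TSS was 7.82 kb away. It held a single AP-2 match.

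Tfap2c encodes AP-2 gamma, a factor required in the trophoblast lineage. It had the most peaks of the 10 genes, 5, and 89.6% of protein-coding genes had fewer. Its density of 4.88 peaks per 100 kb was above that of 95.9% of protein-coding genes. All 5 were intergenic and lay nearer to Tfap2c than to any other protein-coding TSS. Upstream they lay 4.82 kb (chr2:172544560-172544985) and 32.8 kb (chr2:172516573-172517054) from a TSS of the gene. Downstream they lay 16.5 kb (chr2:172568389-172568747), 25.3 kb (chr2:172577158-172577736) and 42.4 kb (chr2:172594383-172594645) from the nearest TSS. The peak nearest to the gene held none of the motifs searched. The peak 32.8 kb upstream held 2 SOX cores, an AP-2 match and a GATA match. The peak 16.5 kb downstream held a TEAD and a KLF match, and the peak 42.4 kb downstream a SOX core and an ESRRB match. The peak 25.3 kb downstream was, at 579 bp, the second widest of the 19, and the stretch chr2:172577359-172577579 on the plus strand is shown because it carries its CDX and TEAD matches. The capitals mark, in order, a CDX match, the closest composite window (4 mismatches, over the limit for a match) and 2 TEAD cores. Its single KLF match lies outside this stretch.

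Tfap2c downstream: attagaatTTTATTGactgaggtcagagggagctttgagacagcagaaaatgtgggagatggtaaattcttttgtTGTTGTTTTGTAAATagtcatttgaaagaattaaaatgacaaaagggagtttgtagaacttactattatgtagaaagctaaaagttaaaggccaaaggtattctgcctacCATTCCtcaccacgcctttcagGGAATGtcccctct

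Eomes encodes a T-box factor that acts beside Cdx2 in the trophectoderm and in trophoblast stem cells. It had 3 peaks, and 68.9% of protein-coding genes had fewer. Their midpoints were 45.3 kb upstream (chr9:118432688-118433107, in an intron of the lincRNA gene 4933432G23Rik), 16.6 kb downstream (chr9:118495398-118495617) and 27.4 kb downstream (chr9:118506000-118506426) of the nearest Eomes TSS. The peak 16.6 kb downstream was nearer to the TSS of the neighbouring gene Golga4 (10.8 kb). The last one lay 54 bp from that TSS, so it was promoter-proximal to Golga4 and not to Eomes. It had 66.5% G+C and a CpG ratio of 0.990, and it held 3 AP-2 matches and a TEAD core. The 100 bases up to the base before the Golga4 TSS (chr9:118506167-118506266, plus strand) are shown because 2 of the AP-2 matches, in capitals, lie there.

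Golga4 promoter: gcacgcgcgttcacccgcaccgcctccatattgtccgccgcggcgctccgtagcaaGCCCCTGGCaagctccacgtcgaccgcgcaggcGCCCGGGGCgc

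Gata3, Elf5, Hand1 and Dlx3 each had a single peak, a count shared with 22.8% of protein-coding genes. Gata3 encodes a zinc finger factor of the trophectoderm. Its peak, 534 bp at chr2:9904142-9904675, lay 14.4 kb upstream of the gene and 13.999 kb from the TSS of Taf3. It was the only one of the 19 with most of its bases masked as repeats in the reference (55.2%), and 15.6% of all peaks were masked over more than 50% of their length. It held a single KLF match and no other. The next peak lay 154 kb away. Within 500 kb of a Gata3 TSS lay 21 peaks, where the median over protein-coding genes was 14.

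Elf5 encodes an ETS-family factor that maintains trophoblast stem cells. Its peak, 442 bp at chr2:103363897-103364338, lay 47.6 kb upstream, inside an intron of the lincRNA gene A930006I01Rik, and no other protein-coding TSS was nearer. Another peak lay 3.20 kb from it and fell just outside the window. The peak held a match each to the GATA, TEAD and CDX motifs. The central 150 bases, chr2:103364043-103364192 on the plus strand, are shown with the GATA and TEAD matches in capitals.

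Elf5 upstream: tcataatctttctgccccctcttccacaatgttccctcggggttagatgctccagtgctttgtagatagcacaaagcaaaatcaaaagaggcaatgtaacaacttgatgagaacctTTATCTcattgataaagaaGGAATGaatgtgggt

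Hand1 encodes a basic helix-loop-helix factor needed for trophoblast giant cells. Its peak, 455 bp at chr11:57813437-57813891, lay 18.5 kb downstream of the nearest Hand1 TSS and 12.03 kb from the TSS of Sap30l. It held matches to the AP-2, SOX, ESRRB and CDX motifs, 1 of each, and no other peak of the 19 held as many kinds. All of these matches fall in the stretch chr11:57813696-57813881, shown on the plus strand with the matches in capitals in that order.

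Hand1 downstream: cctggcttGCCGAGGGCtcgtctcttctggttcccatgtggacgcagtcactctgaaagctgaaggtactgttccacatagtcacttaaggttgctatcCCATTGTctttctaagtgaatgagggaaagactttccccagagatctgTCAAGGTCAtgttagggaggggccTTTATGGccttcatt

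Dlx3 encodes a homeobox factor of the placental labyrinth. Its peak, 325 bp at chr11:95155734-95156058, lay 35.8 kb downstream in an intron of the antisense gene Dlx4os, nearer to the TSS of Dlx4 (9.63 kb) than to that of Dlx3. It held a TEAD core and no other match. Esx1, an X-linked homeobox gene of the placenta, was the only gene of the 10 without a peak. The nearest midpoint was 82.6 kb from an Esx1 TSS and 0.443 kb from that of Slc25a53, and 82.1% of protein-coding genes had a nearer peak. The X chromosome as a whole held 0.378 peaks per 100 kb, and 45.8% of its 948 protein-coding genes had a peak.

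Krt8 and Krt18 encode the keratin partners that form the filaments of the trophectoderm epithelium, and they are neighbours on chromosome 15. Each had 2 peaks. The shared one, 242 bp at chr15:102000150-102000391, lay in an intron of Krt8, 4.21 kb downstream of the Krt8 TSS and 27.9 kb upstream of the Krt18 TSS, with 1 GATA match. The second Krt18 peak, 407 bp at chr15:102074019-102074425, lay in an intron of Eif4b, 0.358 kb from the Eif4b TSS and 46.0 kb from that of Krt18. It had 68.8% G+C and held no match to any motif. The second Krt8 peak, 478 bp at chr15:101963107-101963584, lay 41.1 kb downstream of Krt8 and 9.06 kb from the TSS of Krt78. It held a tandem repeat, and 0% of its bases were masked in the reference. At a shift of 20 bases it matched itself at 93.3% of positions over a run of 75 bases. A run matching at 80% or more, at any shift from 10 to 60 bases, was found in 203 of the 26704 peaks (0.760%) and in 1 of the 19. The shared Krt8 and Krt18 peak fell just under this limit, with 78.7% at a shift of 26 bases, so the count depends on the limit. The central 150 bases (chr15:101963271-101963420, plus strand) are shown for their repetition, with no base in capitals because no motif matched.

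Krt8 downstream: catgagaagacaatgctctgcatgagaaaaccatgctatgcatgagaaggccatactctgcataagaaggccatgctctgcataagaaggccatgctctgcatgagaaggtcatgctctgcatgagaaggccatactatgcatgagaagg

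As a set, the 19 peaks were mostly distal. Relative to the nearest TSS of their gene, 6 lay upstream and 13 downstream, 5 within 10 kb and 14 farther away, with a median distance of 25.3 kb. Midpoints were intergenic in 13 of 19 peaks (68.4%, 95% Wilson interval 46.0% to 84.6%, as for every interval given here) and in 46.1% of all peaks, a share at the lower edge of that interval. They were intronic in 6 of 19 (31.6%, 15.4% to 54.0%) and in 45.5% of all peaks, and 2 of the 6 introns belonged to a trophectoderm gene (Cdx2 and Krt8). A trophectoderm gene owned the nearest protein-coding TSS for 10 of the 19. Of the 19, 2 were promoter-proximal (10.5%, 2.94% to 31.4%), both at other genes (Golga4 and Eif4b), and of all peaks 13.8% were. The interval includes that last share. Intervals cover counting error over peaks only, not error between libraries.

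The median width was 426 bp (range 220 to 1019 bp), against 352 bp over all peaks (quartiles 267 and 471 bp). The binomial interval of the median, 279 to 482 bp, included the value over all peaks. In the 5 peaks within 10 kb the median was 279 bp. Median G+C content was 49.9% against 46.4%. The peaks in the Cdx2 intron and at the Golga4 and Eif4b promoters were the only 3 of the 19 with a CpG ratio of at least 0.6 and at least 50% G+C, a combination found in 7.01% of all peaks. No test was run for G+C content or this combination, so neither shows a difference from all peaks. At the promoters of the 10 genes themselves, the 1 kb around the most upstream TSS was CpG-rich by that definition for Cdx2, Eomes, Tfap2c and Dlx3, and none of these 4 had a peak there. Over protein-coding genes, 20.2% of CpG-rich starts and 6.33% of the other starts had a peak within 1 kb.

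No peak of the 19 held a composite OCT4::SOX2 motif. The motif was searched as the SOX part CATTGT, the base T and the octamer ATGCAAAT, on both strands, with at most 3 mismatches over its 15 positions. Such a match was present in 0 of 19 peaks, which allows a share of up to 15.8% by the limit of 3 counts (16.8% by the upper Wilson bound), in 11.6% of the other 26685 peaks and in 1.86% of 52500 flanking windows, which have the width of a peak and lie 5 kb to either side of it. The share in other peaks falls inside the range the 19 peaks allow, so a difference could not be detected with this number of peaks. The octamer alone, without mismatch, was likewise in 0 of 19 peaks, in 10.97% of the other peaks and in 2.44% of flanking windows. With 1 mismatch allowed it was in 8 of 19 (42.1%, 23.1% to 63.7%) and in 53.5% of the other peaks. A composite match contains the octamer and much of the SOX core up to its mismatches, so these counts are not separate evidence.

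The best composite window had 4 mismatches in 4 peaks, 5 in 9 peaks, 6 in 5 peaks and 7 in 1 peak. Over all peaks, 24.4% had a best window with 4 mismatches and 38.0% with 5. The 4 closest windows are shown 5′ to 3′ on the strand of the motif with 10 bases on each side and the window in capitals, above matches with 3 and 2 mismatches at Pou5f1, which encodes OCT4, and Sox2. Their positions are chr5:147305063-147305097 (Cdx2, minus strand), chr9:118495473-118495507 (Eomes, plus), chr2:172577424-172577458 (Tfap2c, plus), chr15:101963316-101963350 (Krt8, minus), chr17:35504039-35504073 (Pou5f1, minus) and chr3:34654039-34654073 (Sox2, plus).
Cdx2: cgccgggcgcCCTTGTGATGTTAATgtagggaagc
Eomes: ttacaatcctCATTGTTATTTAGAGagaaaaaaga
Tfap2c: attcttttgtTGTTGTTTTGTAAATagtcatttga
Krt8: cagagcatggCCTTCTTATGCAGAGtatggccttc
Pou5f1: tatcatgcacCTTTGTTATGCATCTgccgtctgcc
Sox2: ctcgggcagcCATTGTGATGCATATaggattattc

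**Figure D2:**
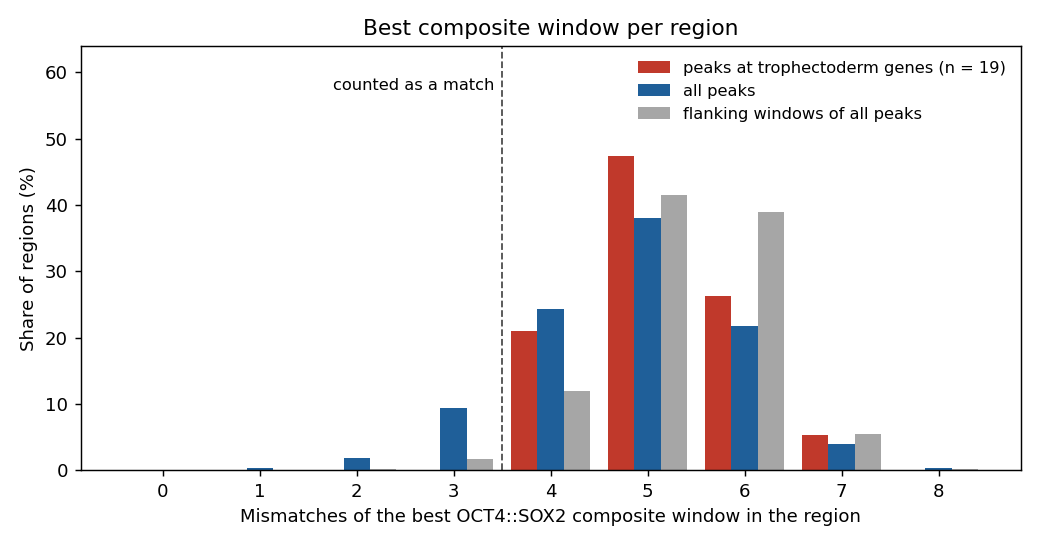
The horizontal axis is the number of mismatches of the best composite window in a region and the vertical axis is the share of regions in percent, for the 19 peaks at trophectoderm genes, for all 26704 peaks and for the flanking windows. The 19 peaks start at 4 mismatches, where all peaks reach down to 0, and the dashed line marks the limit of 3 mismatches.

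The absence of composite matches ended just outside the window. The nearest excluded peaks were at Tfap2c, 50.5 kb upstream (chr2:172498858-172499357), and at Elf5, 50.8 kb upstream (chr2:103360804-103361039), with 2 and 3 mismatches. The outermost included peaks lay 47.6 kb from Elf5, 46.0 kb from Krt18, 45.3 kb from Eomes, 42.4 kb from Tfap2c and 41.1 kb from Krt8, with 5, 7, 5, 6 and 4 mismatches. From 50 to 100 kb there were 15 further peaks, and 4 of them held a composite match (26.7%, 10.9% to 51.95%). Over all 34 peaks within 100 kb, the share was 11.8% (4.67% to 26.6%), and 2 of the 34 held the octamer. The 4 matches lay upstream of Cdx2 (72.4 kb, in an intron), Tfap2c (50.5 kb) and Elf5 (50.8 and 63.5 kb). The Cdx2 peak was closer to the TSS of Flt3 (20.8 kb), and the Tfap2c peak to that of Fam209 (26.6 kb). The Elf5 peak at 63.5 kb was closer to the TSS of Ehf (44.9 kb). Only the Elf5 peak at 50.8 kb had no other coding gene starting closer to it. Both Elf5 peaks also held an octamer. The matches are shown on the strand of the motif, with the composite window in capitals, at chr5:147379609-147379643 (plus), chr2:172499019-172499053 (minus), chr2:103360867-103360901 (plus) and chr2:103348182-103348216 (plus).
Cdx2, 72.4 kb: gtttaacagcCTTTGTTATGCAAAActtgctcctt
Tfap2c, 50.5 kb: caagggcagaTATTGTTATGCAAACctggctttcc
Elf5, 50.8 kb: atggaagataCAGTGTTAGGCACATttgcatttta
Elf5, 63.5 kb: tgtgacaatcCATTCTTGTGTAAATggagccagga

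The SOX core (CCNTTGT with N as A or T) was present in 5 of 19 peaks (26.3%, 11.8% to 48.8%), at Cdx2, Tfap2c and Hand1, against 30.3% of other peaks and 13.2% of flanking windows. In the 38 flanking windows of the 19 peaks themselves it was found 0 times. AP-2 (GCCNNNGGC, N any base) was in 4 of 19 (21.1%, 8.51% to 43.3%) against 12.5% of other peaks, and TEAD (GGAATG) in 6 of 19 (31.6%, 15.4% to 54.0%) against 28.3%. Among the same 38 flanking windows, AP-2 was in 5 (13.2%) and TEAD in 8 (21.1%). Flanking windows of all peaks held AP-2 at 6.46% and TEAD at 19.7%. The GATA motif was searched as AGATAA. The KLF motif was searched as GGGNGTGG, in which N is a pyrimidine. For CDX the letters were TTTATNG, in which N is guanine or thymine. The GATA, CDX and KLF motifs were each in 3 of 19 peaks (15.8%, 5.52% to 37.6%), against 20.1%, 12.04% and 9.18% of other peaks. Flanking windows of all peaks held these motifs at 21.6%, 14.5% and 4.16%. ESRRB (TCAAGGTCA) was in 2 of 19 (10.5%, 2.94% to 31.4%) against 3.07%. T-box (AGGTGTGA) and ETS (CCGGAAGT) were in 0 of 19, against 2.27% and 0.802% of other peaks. Every interval included the share of the other peaks. At least 1 of the AP-2, TEAD, GATA, T-box, CDX and ETS motifs, bound by factor families active in trophoblast, was in 10 of 19 peaks (52.6%, 31.7% to 72.7%), in 55.8% of other peaks and in 49.6% of flanking windows. A match describes the sequence and is not a bound site. None of the motifs was found in 6 of 19 peaks and in 23.4% of the others.

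**Figure D3:**
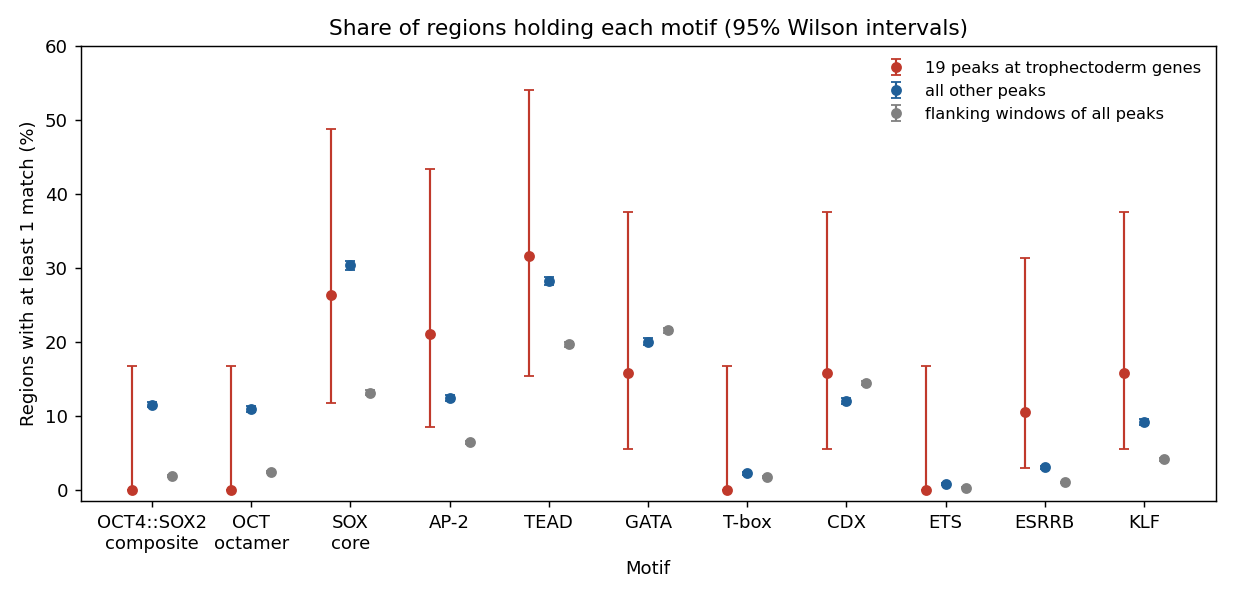
Points show the share of regions in percent (vertical axis) with at least 1 match to each motif (horizontal axis), for the 19 peaks at trophectoderm genes, all other peaks and flanking windows, with 95% Wilson intervals for counting error. The intervals of the 19 peaks are wide and reach over the share of the other peaks for all 11 motifs.

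Genes of related roles were counted with the same rule. The lists held 34 other trophoblast genes, of which 31 had a peak, with a median of 4 peaks. Among 7 regulators of the Hippo pathway, which controls TEAD4 activity, the median was 5 and 3 genes had a peak within 1 kb of a TSS. Nf2 had 7 peaks, Wwtr1 and Lats2 6 each, Tead4 5 and Amot, on the X chromosome, none. Among 7 other trophoblast transcription factors the median was 4, with 5 each for Tfap2a and Gata2. Among 5 signalling genes, Spry4 had 8, Bmp4 6 and Id2 5. Fgfr2 had 50, but its annotated body spans 2961 kb, and its density of 1.64 peaks per 100 kb was above that of 57.8% of genes. Of 8 genes of the trophectoderm epithelium (median 3.5), Aqp3 had 5 peaks and Krt7 had none. The 7 later placental genes had a median of 1, and Tpbpa had none.

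Genes of the other early lineages gave a frame for these counts. Of 10 primitive endoderm genes 8 had a peak, with a median of 2.5, and 4 had a peak within 1 kb of a TSS. All 12 pluripotency genes had one, with a median of 5 and a range of 2 to 9. In the 61 peaks of the pluripotency genes a composite match was found in 10 (16.4%, 9.16% to 27.6%), in the 21 peaks of the primitive endoderm genes in 1 (4.76%, 0.846% to 22.7%), and in the 164 peaks of the other trophoblast genes in 17 (10.4%, 6.57% to 16.0%). Of those 164 peaks, 50 were counted for Fgfr2, with its long annotated body, and 5 of the 50 held a match. The 10 peaks of the later placental genes, also among the 164, held 0 matches (0% to 27.8%). The interval of each set overlapped what 0 of 19 allows. Gene and peak counts describe these lists, which share peaks where genes are neighbours, such as Nanog and Dppa3.

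**Figure D4:**
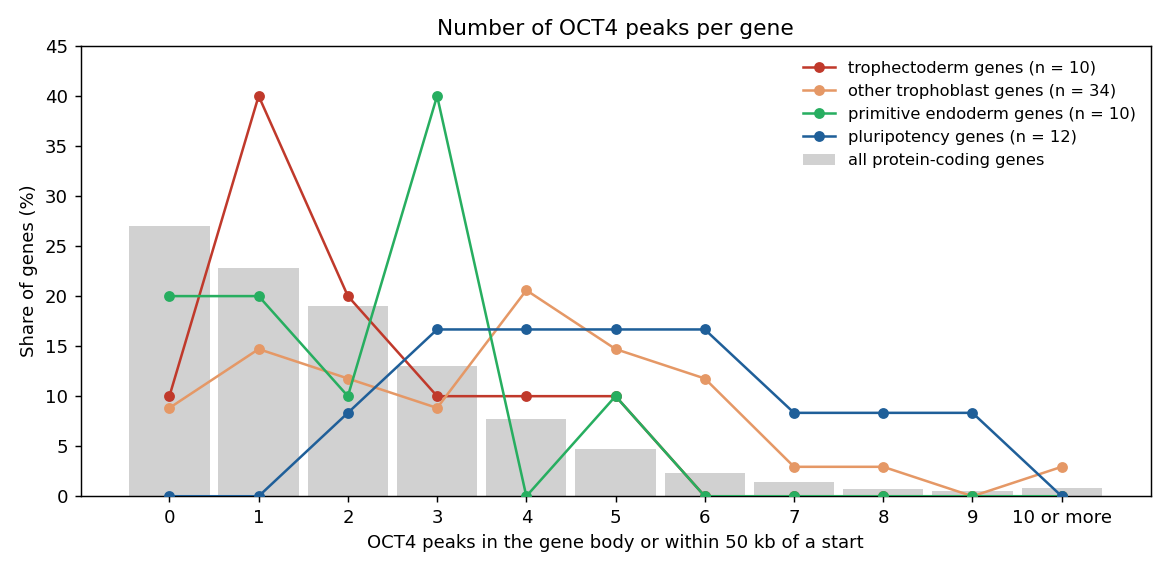
Grey bars give the share of all protein-coding genes in percent (vertical axis) by their number of OCT4 peaks (horizontal axis), and coloured lines give the same share for each gene list. Trophectoderm genes are most often at 1 peak and reach 5, and pluripotency genes lie between 2 and 9.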

How the data were processed

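The deposited values are start and end coordinates of peaks, in bp, and chromosomes, with no score. The authors aligned reads to mm10 with STAR 2.6.1c, removed duplicates with Picard, called peaks with MACS2 2.1.1.20160309 on paired-end reads, and used BEDTools to merge the peak files. Which libraries entered the merge is not given in the sources used here. The list still holds 1 peak over 5 kb. Merging makes a width the union of overlapping peaks.

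All 26704 peaks lay within the chromosomes of GRCm38.p6 and were annotated with GENCODE M21, and sequences came from the RefSeq copy of that assembly. Positions are 1-based. Distances run from peak midpoints. Motifs were scanned on both strands in Python 3 with NumPy, and Wilson intervals were computed with SciPy. Of the flanking windows, 908 that met a peak or unknown bases were left out. The scanner and the counting rule were tested on simulated data. Tests were not run, because the list has no replicate values.

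Named peaks were each gene's nearest, the promoter-proximal ones, those with a composite match and the 3 widest. The remaining member peaks, the peaks past 50 kb and the tandem repeat were described after their values were seen. Of the other trophoblast lists, genes with at least 5 peaks or none are named, except 1 that is not reported here. The genes, lists and motifs were chosen with earlier results of these data known.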

Additional observations from a re-analysis of the deposited data

How the results depend on the processing

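No paired analysis was possible because no value of any single library was at hand, and for the same reason no replicate could be left out. Of 10 results recomputed under 68 alternatives, 55 values stayed within their limits, which were 1.5 times the count, the Wilson interval of a share or the binomial interval of the median width (279 to 482 bp). The distance moved the counts most. With 10 kb in place of 50 kb there were 5 peaks at 3 genes and a median of 0 per gene, and with 100 kb 34 peaks and a median of 3. Within 1 kb of a start no gene had a peak (0, added after the data were seen). Giving a peak only to the protein-coding gene with the nearest start left 10 peaks at 5 genes and a median of 0.5. In the 5 peaks within 10 kb, AP-2 matches and promoter-proximal peaks were both at 0%. With at most 4 mismatches the composite motif was in 21.1% of the peaks (8.51% to 43.3%). The share at this setting was 35.9% in the other peaks, inside that interval, and 13.8% in flanking windows. With 1 mismatch the octamer was in 42.1%, against 53.5% of the other peaks. The composite share was 0% with 2 mismatches and in the central 200 bp. It was also 0% in distal peaks, in peaks of at least 300 bp and in peaks with at most 50% repeat-masked bases. These settings only narrow a search that had found 0, so their 0% was fixed in advance. The same holds for the octamer in parts of the peaks. Such values are among the 55 and say nothing about stability. The composite share was 11.8% within 100 kb, a distance added for this motif after the data were seen. The unknown depth limits every absence of a peak, and 19 peaks limit every share.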
